A study of Mus musculus with 6 samples.

Results

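The genes described here build and fire the DNA replication machinery, or carry a cell through mitosis, and were measured in whole mouse ileum. The set held 48 genes, found through the array's gene annotation, and 46 of them had at least 1 probe set annotated to them alone, of 12393 genes with such a probe set in the series. They comprised 19 replication genes, 25 mitosis genes and the general proliferation markers Mki67 and Melk, with 85 probe sets in all. Ccnb1 and Gins2 had no probe set of their own and were not analysed here. Each gene was represented by its brightest probe set.

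In all, 6 single-colour arrays, 2 in each of 3 groups, were compared. In BDL_GW4064 mice the common bile duct was tied (bile duct ligation, BDL), and GW4064, a drug that activates the bile acid receptor FXR, was given at 100 mg/kg/day. BDL_Vehicle mice had the same ligation and received only the Tween80 and methylcellulose carrier. Sham_Vehicle mice received the carrier and had the duct freed through the same incision but not tied. All mice were wild-type males, 8 to 10 months old, of mixed C57BL/6:129Sv strain, dosed by gavage for 2 days before and 5 days after surgery. Nothing in the labels ties the 2 arrays of a group to separate animals; the p-values then reflect only how far these arrays differ, which may be technical. Ileum from sham-operated mice given GW4064 was not analysed here.

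In the ileum, most dividing cells lie in the crypts, where stem cells and their transit-amplifying daughters renew the villus epithelium. Before S phase, the MCM helicase is loaded at replication origins with the help of Cdc6 and Cdt1, and E2F factors switch on genes for DNA synthesis. Genes of G2 and mitosis are switched on later, largely through promoter elements called the CHR and the CCAAT box, bound by the MuvB complex with B-MYB or FOXM1 and by NF-Y. Because whole tissue was measured, fewer cells of a type and less RNA per cell cannot be told apart in any value below.

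The members' promoter sequences were searched for these elements. Promoter windows of 300 bases, 250 before to 50 after each gene's start, were taken from RefSeq (GRCm38.p6) and matched 39 of the 48 members. Searched on both strands, an E2F motif (TTNNCGC, with each N a C or a G) occurred in 9 of 17 replication windows (52.9%) and in 2 of 20 mitosis windows (10%), against 15.1% of the windows of genes with a probe set and 9.69% of all windows. A CHR motif (TTNGAA, with N a T or a C) occurred in 15 of 20 mitosis windows (75%) and in 3 of 17 replication windows (17.6%), against 14.7% of the windows of genes with a probe set and 19.4% of all windows. A CCAAT box (CCAAT) occurred in 18 of 20 mitosis windows (90%) and in 10 of 17 replication windows (58.8%), against 38.1% and 37.9% in the same backgrounds. All 15 mitosis windows with a CHR motif also held a CCAAT box, as did all 3 replication windows with a CHR motif. Both motifs together occurred in 5.96% of the windows of genes with a probe set and 7.7% of all windows. Such matches describe the letters of these windows and show no binding. The windows below belong to the 4 members with an unadjusted p under 0.05 after ligation and to Mcm6, the helicase subunit with the smallest p there; capitals mark E2F, CHR and CCAAT letters. They lie at chr7:122159185-122159484 (Plk1, plus strand), chr2:164769679-164769978 (Ube2c, plus), chr5:30666636-30666935 (Cenpa, plus), chr12:24708004-24708303 (Rrm2, plus) and chr1:128359656-128359955 (Mcm6, minus).
Plk1: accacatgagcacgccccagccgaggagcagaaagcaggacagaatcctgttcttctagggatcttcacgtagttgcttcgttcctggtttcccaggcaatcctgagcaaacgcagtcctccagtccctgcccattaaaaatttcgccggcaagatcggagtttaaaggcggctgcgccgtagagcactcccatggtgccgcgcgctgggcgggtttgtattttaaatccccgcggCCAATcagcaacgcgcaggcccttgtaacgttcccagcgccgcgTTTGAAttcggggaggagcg
Ube2c: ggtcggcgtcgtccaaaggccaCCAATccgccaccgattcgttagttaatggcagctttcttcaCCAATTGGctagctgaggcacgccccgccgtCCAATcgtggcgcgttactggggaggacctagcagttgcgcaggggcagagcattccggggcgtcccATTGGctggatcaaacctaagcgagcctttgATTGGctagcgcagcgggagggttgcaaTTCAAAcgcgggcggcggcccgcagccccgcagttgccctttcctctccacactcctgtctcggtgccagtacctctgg
Cenpa: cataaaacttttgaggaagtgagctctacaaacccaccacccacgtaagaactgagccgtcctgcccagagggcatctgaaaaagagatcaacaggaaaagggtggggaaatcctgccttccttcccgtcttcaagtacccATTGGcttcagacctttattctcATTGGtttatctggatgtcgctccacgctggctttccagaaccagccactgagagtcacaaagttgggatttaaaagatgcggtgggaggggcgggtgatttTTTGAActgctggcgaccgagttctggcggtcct
Rrm2: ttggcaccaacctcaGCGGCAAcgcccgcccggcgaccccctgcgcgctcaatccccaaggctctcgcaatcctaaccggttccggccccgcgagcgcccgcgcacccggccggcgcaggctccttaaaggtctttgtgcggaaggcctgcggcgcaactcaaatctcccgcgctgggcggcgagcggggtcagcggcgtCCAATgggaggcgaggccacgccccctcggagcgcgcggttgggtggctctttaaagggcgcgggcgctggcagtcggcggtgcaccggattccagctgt
Mcm6: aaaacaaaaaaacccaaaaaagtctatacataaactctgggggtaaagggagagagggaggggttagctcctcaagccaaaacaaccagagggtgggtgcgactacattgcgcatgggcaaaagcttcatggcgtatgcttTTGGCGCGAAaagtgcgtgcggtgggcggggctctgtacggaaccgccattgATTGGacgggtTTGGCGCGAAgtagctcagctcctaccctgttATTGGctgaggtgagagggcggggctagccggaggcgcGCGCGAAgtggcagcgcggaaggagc
The 3 mitosis genes in this group, Plk1, Ube2c and Cenpa, each held 1 CHR motif, 30 bases after, 29 before and 16 after the start in that order. Mcm6 held 5 E2F matches, including 2 overlapping pairs on opposite strands, and no CHR motif. Rrm2, a replication gene, held 1 E2F match far upstream, 235 bases before the start, and 1 CCAAT box.

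Signals are linear MAS5 values that the submitters scaled to a 2% trimmed mean near 200 on every array. Probe sets in the lowest 40% by mean signal (below 37.1) were left out of the test, and 41 members passed this filter: 16 of 19 replication genes, 23 of 25 mitosis genes and both markers. Cdc6, Tyms, Ccne2, Cdc25c and Cenpe did not pass. Tyms, thymidylate synthase, read only 1.2 to 9.1 on the 6 arrays at the brightest of its 3 probe sets. A further Tyms probe set, annotated to more than 1 gene, was not used, so these readings do not show that Tyms was absent. Epcam, an epithelial adhesion molecule, read 4311.5 to 5177.0 on every array and the brush-border gene Vil1 read 3274.1 to 3931.3, so the labelled intestinal tissue showed its defining transcripts. The actin 3' to 5' signal ratio, a measure of RNA integrity, was 1.73 on Sham_Vehicle array 2 and 1.09 to 1.22 on the other 5 arrays. An 18S ribosomal control read 67.3 to 88.7 on BDL_Vehicle array 1 and both Sham_Vehicle arrays, and 8.6 to 13.3 on the other 3.

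The members moved together across the 6 arrays, and differed as much between arrays of a group as between groups. Their median level, on the log2(signal + 4) scale relative to each gene's mean over the arrays, was -0.25 and 0.28 in BDL_GW4064, 0.30 and 0.01 in BDL_Vehicle, and -0.01 and -0.32 in Sham_Vehicle. Every group held a higher and a lower array. Sham_Vehicle array 2 was the lowest of the 6 for 26 of 41 members (63.4%), against 20.8% of all 7919 genes past the filter. BDL_GW4064 array 1 was the lowest for 12 members (29.3%, against 18.6% of all genes). The highest level was on BDL_Vehicle array 1 for 19 members (46.3%, against 15.4%) and on BDL_GW4064 array 2 for 18 (43.9%, against 19%). Within BDL_GW4064, array 2 exceeded array 1 for 39 of 41 members, by a median of 0.57 on the log2 scale, whereas 52.7% of all genes did so, by a median of 0.02. Tpx2, a spindle assembly factor, and Prc1, a cytokinesis factor, were the exceptions at their brightest probe sets. Their other probe sets were higher on BDL_GW4064 array 2, with 26.9 and 49.6 for Tpx2 and 67.2 and 105.7 for Prc1 on arrays 1 and 2.

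**Figure D1:**
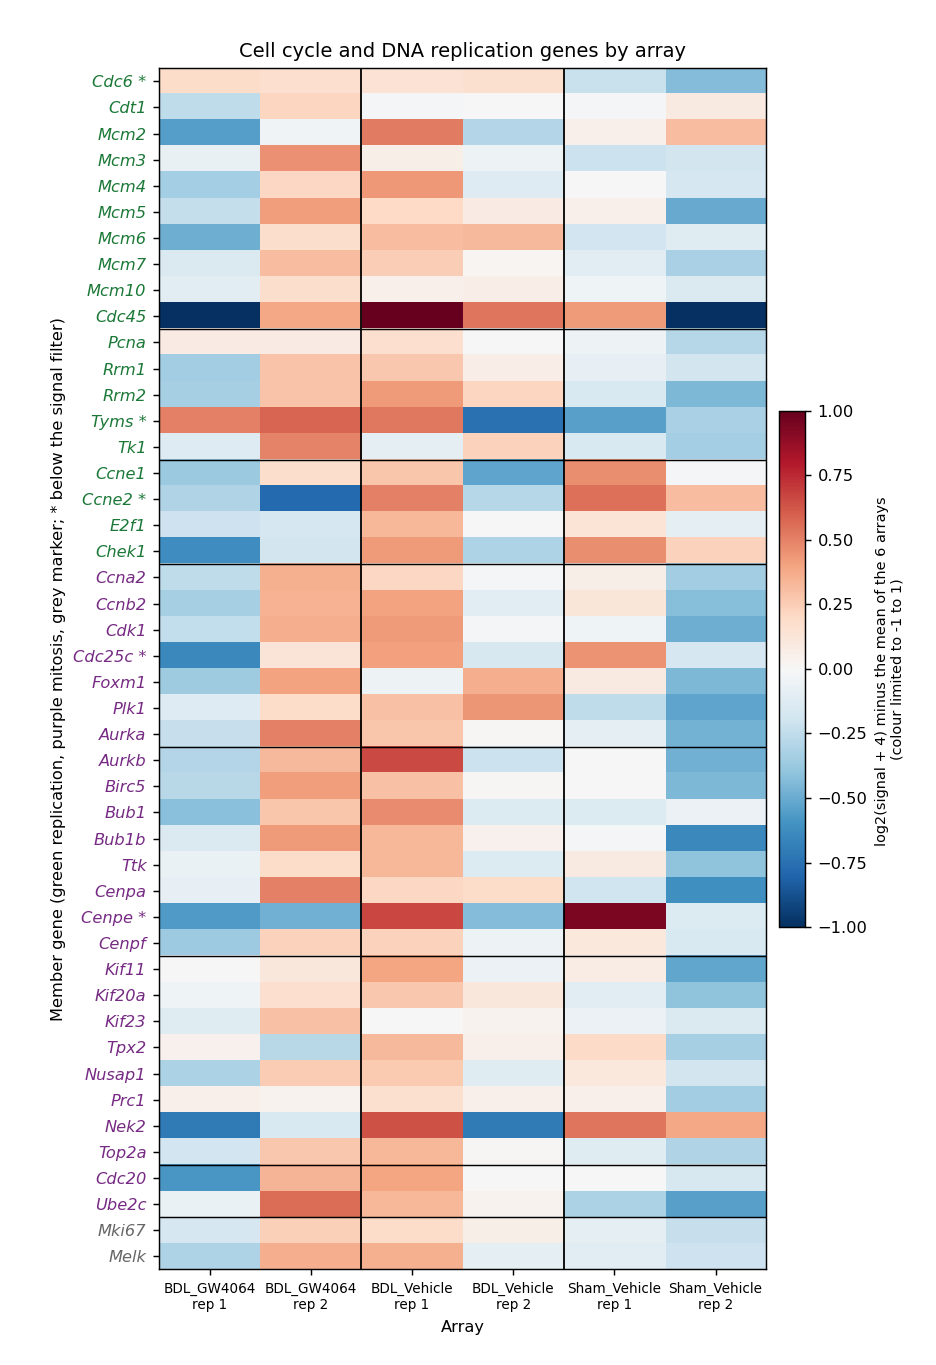
Level of each of the 46 members (rows, grouped by role) on each of the 6 arrays (columns), as log2(signal + 4) minus the gene's mean over the arrays, with colour limited to -1 to 1. Most rows are blue on BDL_GW4064 array 1 and Sham_Vehicle array 2 and red on BDL_GW4064 array 2 and BDL_Vehicle array 1.

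Replication and mitosis genes followed one another from array to array. The replication median was -0.29 and 0.21 in BDL_GW4064, 0.27 and 0.01 in BDL_Vehicle, and -0.03 and -0.18 in Sham_Vehicle, on the relative log2 scale. The mitosis median was -0.23 and 0.29 in BDL_GW4064, 0.33 and 0.01 in BDL_Vehicle, and 0.00 and -0.40 in Sham_Vehicle. The 2 classes differed by at most 0.08 on 5 arrays and parted on Sham_Vehicle array 2, where the mitosis median was lower by 0.23. That array was also the one with the high actin ratio, whose part in these values was not tested.

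**Figure D2:**
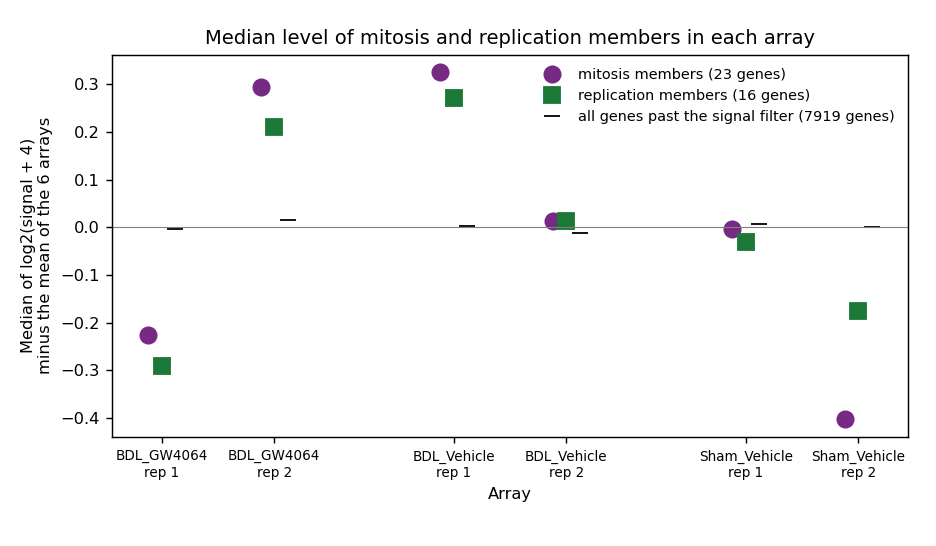
Median level of the 23 mitosis genes (circles), the 16 replication genes (squares) and all 7919 genes past the filter (dashes) on each array, on the vertical axis as log2(signal + 4) minus the mean of the 6 arrays. Both classes sit above 0 on BDL_GW4064 array 2 and BDL_Vehicle array 1 and below it on BDL_GW4064 array 1 and Sham_Vehicle array 2, while all genes stay near 0.

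Ligation alone was examined by comparing BDL_Vehicle with Sham_Vehicle. No member passed limma's test at an adjusted p of 0.05 in this comparison, in which 0.0295% of all 13575 probe sets tested passed. Values were higher in BDL_Vehicle for 36 of 41 members, against 47.9% of all genes, and lower for 5, against 52.1%, with a median log2 fold change of 0.29 over the members and -0.01 over all genes. Without the filter, 38 of 46 members had higher values and the median was 0.29. At an unadjusted p under 0.05, 4 members had higher values and none lower, against 2.95% of all genes higher and 3.06% lower. The arrays of the 2 groups did not overlap for 24 members, all higher in BDL_Vehicle, against 18.1% of all genes higher and 19.7% lower. The median of 0.29 compares with an SD of 0.275 for the members' array medians within groups. Without Sham_Vehicle array 2, the array with the high actin ratio, the median was 0.16 with 35 of 42 members higher, and without BDL_Vehicle array 1 it was 0.16 with 30 of 39 higher. Without Sham_Vehicle array 1 the median was 0.45, and without BDL_Vehicle array 2 it was 0.44.

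Of the 4 members with an unadjusted p under 0.05, 3 were mitosis genes. Plk1, the kinase that drives mitotic entry and spindle assembly, read 166.5 and 185.5 in BDL_Vehicle and 112.5 and 92.4 in Sham_Vehicle. The groups did not overlap, and the log2 fold change was 0.76 ± 0.19 (SE, n = 2 each; limma adjusted p = 0.68). Ube2c, the ubiquitin-conjugating enzyme of the anaphase-promoting complex, read 546.4 and 443.8 in BDL_Vehicle and 347.4 and 295.9 in Sham_Vehicle, a log2 fold change of 0.61 ± 0.22 (adjusted p = 0.751). Cenpa, the histone variant that marks centromeres, read 220.7 and 217.5 in BDL_Vehicle and 165.7 and 123.1 in Sham_Vehicle, a log2 fold change of 0.60 ± 0.24 (adjusted p = 0.751). For both genes every BDL_Vehicle array exceeded every Sham_Vehicle array. Kif20a, a cytokinesis motor, read 74.9 and 67.0 in BDL_Vehicle and 56.8 and 45.6 in Sham_Vehicle (0.45 ± 0.23). Top2a, the topoisomerase that untangles sister chromatids, read 516.9 and 414.3 in BDL_Vehicle and 377.1 and 332.6 in Sham_Vehicle (0.38 ± 0.20). These 2 had an adjusted p of 0.751 too. By role, the median log2 fold change was 0.38 for the 6 mitotic entry genes, with 6 higher, and 0.38 for the 7 centromere and spindle checkpoint genes, with 7 higher. It was 0.25 for the 8 spindle and cytokinesis genes, with 7 higher, and 0.45 for the APC genes Cdc20 and Ube2c. Nek2, a centrosome kinase, was the 1 mitosis gene of 23 with a lower mean, and its BDL_Vehicle arrays lay far apart at 68.4 and 24.4, around 63.4 and 56.7 in Sham_Vehicle.

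Replication genes varied more by role after ligation. Rrm2, the ribonucleotide reductase subunit that limits nucleotide supply, read 277.0 and 239.0 in BDL_Vehicle and 184.3 and 149.2 in Sham_Vehicle, a log2 fold change of 0.62 ± 0.23 (adjusted p = 0.751). Pcna, the sliding clamp of the replication fork, read 1579.1 and 1408.6 in BDL_Vehicle and 1357.9 and 1157.4 in Sham_Vehicle, 0.25 ± 0.13 (adjusted p = 0.751). With Rrm1 and Tk1, all 4 clamp and nucleotide supply genes past the filter were higher without overlap. Among the helicase subunits, Mcm6 read 300.8 and 305.4 in BDL_Vehicle and 211.9 and 222.2 in Sham_Vehicle, with a log2 fold change of 0.47 ± 0.22 (adjusted p = 0.751). Mcm2, a subunit of the same ring, had no such difference at its brightest probe set. It read 280.9 and 157.7 in BDL_Vehicle and 202.1 and 241.7 in Sham_Vehicle, -0.07 ± 0.29 (adjusted p = 0.969), and the groups overlapped. The contrast turned around at their other probe sets. That of Mcm2 read 148.5 and 116.7 in BDL_Vehicle and 113.4 and 102.8 in Sham_Vehicle, higher without overlap (0.28). That of Mcm6 read 177.6 and 114.7 in BDL_Vehicle and 136.5 and 116.3 in Sham_Vehicle, with overlap (0.18). Over the 9 licensing and helicase genes, 7 were higher, with a median of 0.24. The 3 genes of G1/S control and the S-phase checkpoint had a median of -0.29. Cyclin E1 (Ccne1) and the checkpoint kinase Chek1 had lower means in BDL_Vehicle and E2f1 a higher one, and for all 3 the groups overlapped. Mki67, the proliferation antigen Ki-67, read 608.9 and 556.2 in BDL_Vehicle and 503.1 and 453.9 in Sham_Vehicle, 0.28 ± 0.17 (adjusted p = 0.765), without overlap.

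**Figure D3:**
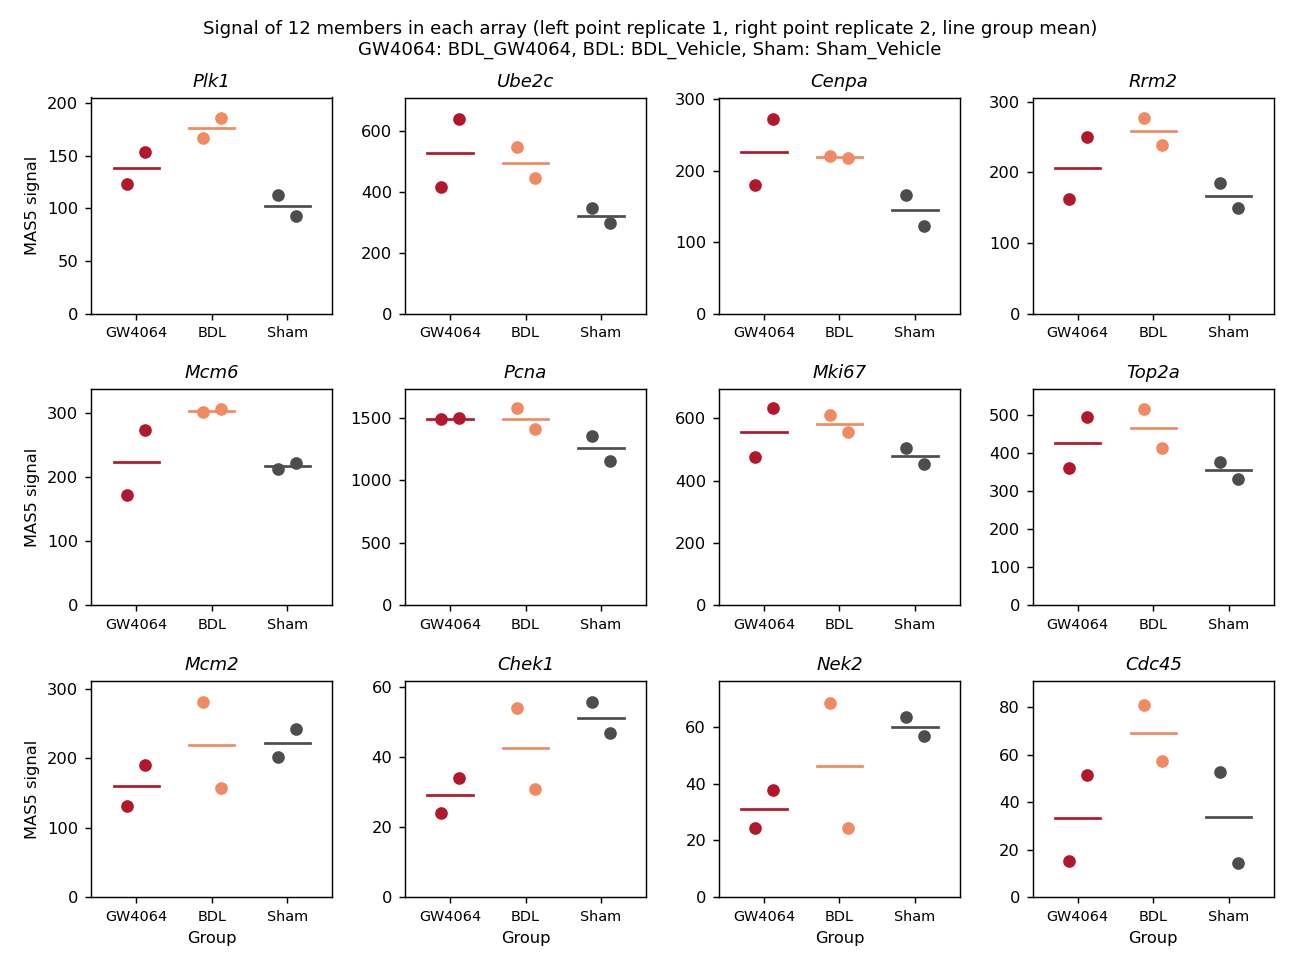
MAS5 signal (vertical axis, starting at 0) of 12 members on each array, grouped by BDL_GW4064, BDL_Vehicle and Sham_Vehicle, with replicate 1 left, replicate 2 right and a line at each group's mean. Plk1, Ube2c, Cenpa and Rrm2 were higher on both BDL_Vehicle arrays than on both Sham_Vehicle arrays, whereas Mcm2, Chek1 and Nek2 overlapped between these groups.

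Adding GW4064 to ligation was examined by comparing BDL_GW4064 with BDL_Vehicle. No member passed at an adjusted p of 0.05, in a comparison in which 0.0516% of all probe sets passed, and no member had an unadjusted p under 0.05, against 5.06% of all genes higher and 2.41% lower. Values were lower in BDL_GW4064 for 34 of 41 members, against 49.6% of all genes, and higher for 7, against 50.4%, with a median log2 fold change of -0.11 over the members and 0.00 over all genes. Without the filter, 37 of 46 had lower values and the median was -0.12. The groups did not overlap for 6 members, all lower in BDL_GW4064, against 16.7% of all genes lower and 19.1% higher. Which array was used set the direction. Without BDL_GW4064 array 2 the median was -0.38 and 0 of 41 members were higher, and without BDL_GW4064 array 1 it was 0.12 and 30 of 42 were higher. Without BDL_Vehicle array 1 it was 0.05 with 24 of 39 higher, and without BDL_Vehicle array 2 it was -0.28 with 4 of 40 higher.

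Mcm6 had the smallest p here. It read 171.8 and 274.1 in BDL_GW4064 and 300.8 and 305.4 in BDL_Vehicle, without overlap, a log2 fold change of -0.47 ± 0.22 (SE, n = 2 each; limma adjusted p = 0.705). Cdc45, which activates the loaded helicase, read 15.2 and 51.3 in BDL_GW4064 and 81.1 and 57.5 in BDL_Vehicle, -1.15 ± 0.63 (adjusted p = 0.779). Its BDL_GW4064 arrays lay far apart, one of them, at 15.2, under the filter level of 37.1. Plk1 read 123.1 and 153.8 in BDL_GW4064 and 166.5 and 185.5 in BDL_Vehicle, without overlap (-0.34 ± 0.19, adjusted p = 0.789). Rrm2 read 162.4 and 250.0 in BDL_GW4064 and 277.0 and 239.0 in BDL_Vehicle, with overlap (-0.35 ± 0.23, adjusted p = 0.83). Mcm2 read 131.5 and 189.7 in BDL_GW4064 and 280.9 and 157.7 in BDL_Vehicle, also with overlap (-0.41 ± 0.29, adjusted p = 0.844). Tpx2 read 73.8 and 58.1 in BDL_GW4064 and 90.4 and 73.9 in BDL_Vehicle, whose nearest arrays, 73.8 and 73.9, almost met (-0.30 ± 0.26, adjusted p = 0.879). Chek1 and E2f1 were dim in BDL_GW4064, with both arrays below 37.1. Chek1 read 24.1 and 34.0 in BDL_GW4064 and 54.0 and 30.8 in BDL_Vehicle, with overlap and with the lower BDL_Vehicle array also below 37.1 (-0.46 ± 0.33 as measured, adjusted p = 0.844). E2f1, the transcription factor of the G1/S switch, read 33.9 and 34.9 in BDL_GW4064 and 51.1 and 39.9 in BDL_Vehicle, at least 1.2-fold lower (-0.36 ± 0.27 as measured, adjusted p = 0.85). The other E2f1 probe set read 29.7 and 32.1 in BDL_GW4064 and 43.9 and 29.9 in BDL_Vehicle, with overlap. The general markers lay close together. Pcna read 1491.4 and 1494.2 in BDL_GW4064 and 1579.1 and 1408.6 in BDL_Vehicle (0.00 ± 0.13, adjusted p = 0.999), and Mki67 read 476.3 and 632.7 in BDL_GW4064 and 608.9 and 556.2 in BDL_Vehicle (-0.08 ± 0.17, adjusted p = 0.968). Top2a read 359.8 and 495.2 in BDL_GW4064 and 516.9 and 414.3 in BDL_Vehicle (-0.13 ± 0.20, adjusted p = 0.949). For all 3 the groups overlapped.

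**Figure D4:**
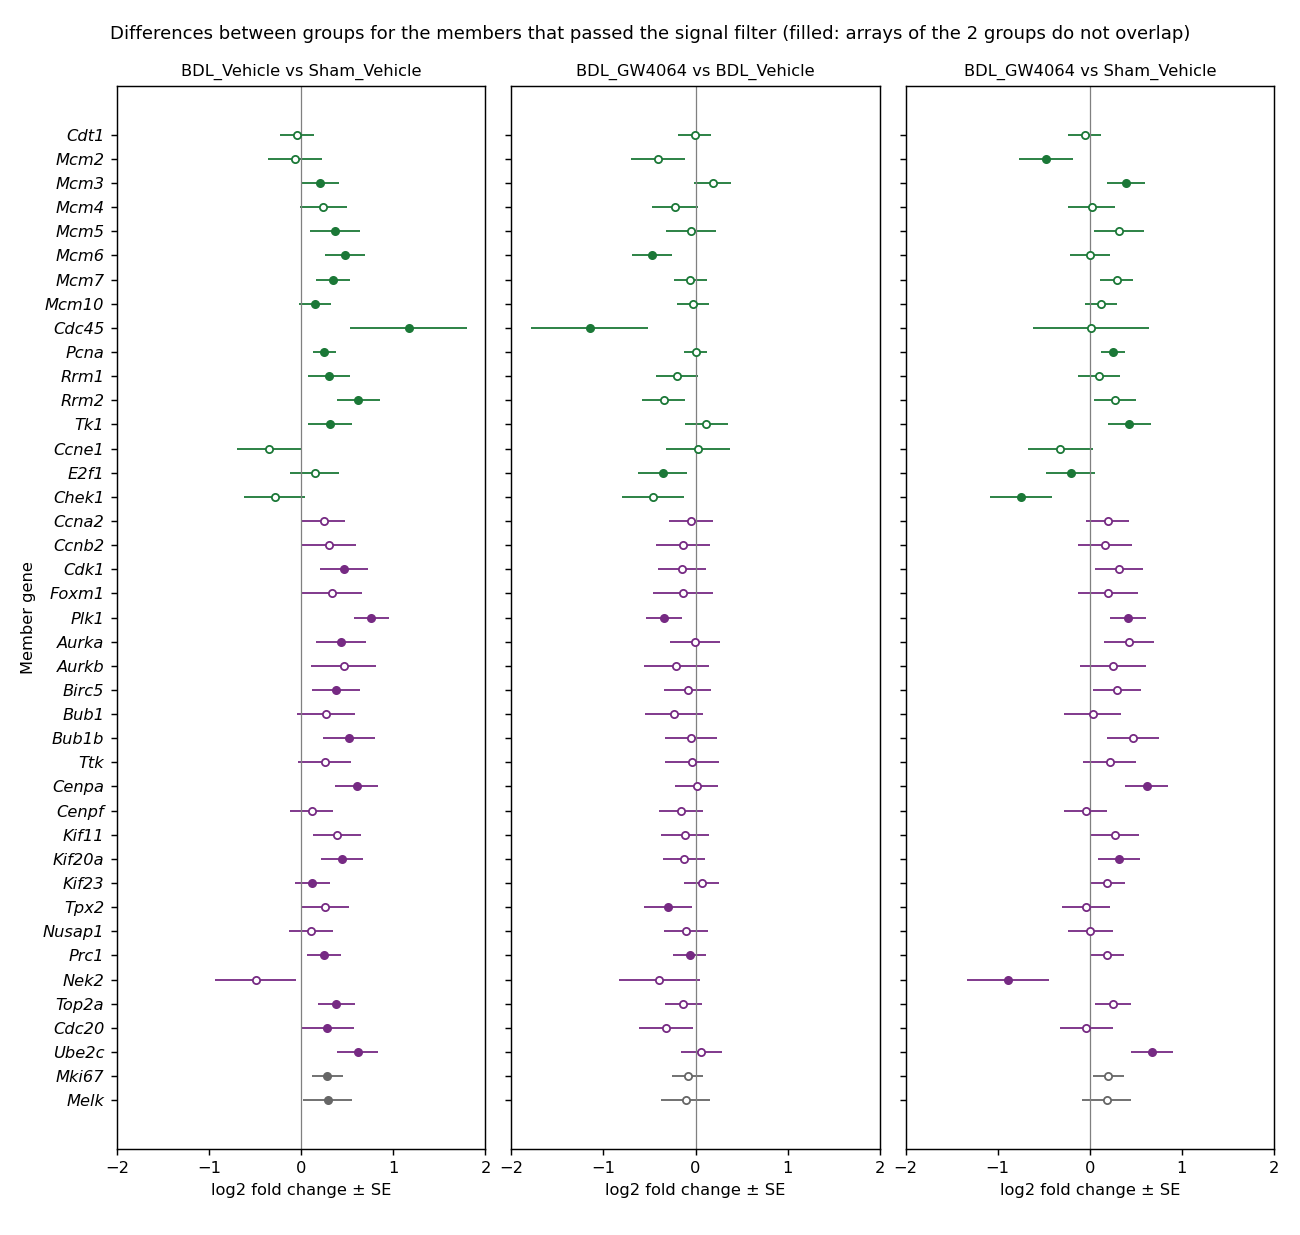
Log2 fold change ± SE (horizontal axis) of the 41 members past the filter in each comparison, replication genes in green, mitosis genes in purple and markers in grey, with filled points where the arrays of the 2 groups do not overlap. Filled points lie to the right of 0 for 24 members in BDL_Vehicle against Sham_Vehicle and to the left for 6 in BDL_GW4064 against BDL_Vehicle.

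Ligation with GW4064 was also set against the sham operation without it, a comparison that shares its arrays with the other 2. No member passed at an adjusted p of 0.05, and 0.0368% of all probe sets did. Values were higher in BDL_GW4064 than in Sham_Vehicle for 32 of 41 members, against 51.8% of all genes, and lower for 9, against 48.2%, with a median log2 fold change of 0.20 over the members and 0.01 over all genes. Without the filter, 34 of 46 were higher and the median was 0.19. At an unadjusted p under 0.05, 2 members were higher and none lower, against 7.15% of all genes higher and 7.08% lower. The groups did not overlap for 7 members higher and 4 lower in BDL_GW4064, against 25% and 24% of all genes. The median was 0.21 for mitosis genes, of which 19 of 23 were higher, and 0.06 for replication genes, of which 11 of 16 were higher. Without BDL_GW4064 array 2 the member median was -0.03 and 16 of 41 were higher, and without BDL_GW4064 array 1 it was 0.42. Without Sham_Vehicle array 2 it was 0.04 with 23 of 42 higher, and without Sham_Vehicle array 1 it was 0.38.

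Ube2c had the smallest p in this comparison, with 414.3 and 639.0 in BDL_GW4064 and 347.4 and 295.9 in Sham_Vehicle, a log2 fold change of 0.68 ± 0.22 (SE, n = 2 each; limma adjusted p = 0.231). Cenpa read 179.5 and 272.5 in BDL_GW4064 and 165.7 and 123.1 in Sham_Vehicle, 0.62 ± 0.24 (adjusted p = 0.275). Plk1 read 123.1 and 153.8 in BDL_GW4064 and 112.5 and 92.4 in Sham_Vehicle, 0.42 ± 0.19 (adjusted p = 0.339). None of these 3 mitosis genes overlapped between the groups. Among replication genes, Pcna read 1491.4 and 1494.2 in BDL_GW4064 and 1357.9 and 1157.4 in Sham_Vehicle (0.25 ± 0.13, adjusted p = 0.374). Mcm3, a helicase subunit, read 175.6 and 255.6 in BDL_GW4064 and 158.3 and 162.5 in Sham_Vehicle (0.39 ± 0.20, adjusted p = 0.38), and thymidine kinase Tk1 read 170.9 and 264.8 in BDL_GW4064 and 167.9 and 146.8 in Sham_Vehicle (0.43 ± 0.24, adjusted p = 0.41). All 3 were higher without overlap, although the nearest arrays of Tk1 were close, at 170.9 and 167.9. Mki67 (0.20 ± 0.17, adjusted p = 0.587) and Top2a (0.25 ± 0.20, adjusted p = 0.555) overlapped. Mcm6 had a log2 fold change of 0.00 ± 0.22, and its BDL_GW4064 arrays lay on either side of both Sham_Vehicle arrays. The other probe set of Mcm6 read 57.0 and 103.1 in BDL_GW4064 and 136.5 and 116.3 in Sham_Vehicle, lower without overlap (-0.69 ± 0.31, adjusted p = 0.333).

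A few members ran the other way. Chek1 read 24.1 and 34.0 in BDL_GW4064 and 55.5 and 46.7 in Sham_Vehicle, at least 1.34-fold lower (-0.75 ± 0.33 as measured, adjusted p = 0.325). Nek2 read 24.5 and 37.9 in BDL_GW4064 and 63.4 and 56.7 in Sham_Vehicle (-0.89 ± 0.44, adjusted p = 0.372), and Mcm2 read 131.5 and 189.7 in BDL_GW4064 and 202.1 and 241.7 in Sham_Vehicle (-0.47 ± 0.29, adjusted p = 0.458). E2f1 was the other member lower without overlap. For Mcm2 this held at its brightest probe set only. Its other probe set read 84.4 and 126.1 in BDL_GW4064 and 113.4 and 102.8 in Sham_Vehicle, with overlap (-0.06). Chek1, Nek2 and Mcm2 were also the members, 3 of 41 (7.32%), whose levels were all higher on the 3 arrays with the higher 18S signal than on the 3 with the lower one, as were 13.9% of all genes; no member was lower on all of them, against 11.7% of all genes. A fit with the 18S set as a term can estimate that term from the 2 BDL_Vehicle arrays only. With it, the log2 fold change between BDL_GW4064 and Sham_Vehicle was 0.46 for Nek2, 0.34 for Mcm2 and -0.01 for Chek1. These 3 were picked by a rule that puts BDL_Vehicle array 1 above array 2, so the term could only raise their values. The fit therefore cannot show whether the 18S set accounts for their lower levels.

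Different probe sets of a gene did not always point the same way. Of the 15 members with at least 2 probe sets past the filter, signs differed for 4 between BDL_Vehicle and Sham_Vehicle (Cdt1, Mcm2, Mcm4 and Foxm1). They differed for 3 between BDL_GW4064 and BDL_Vehicle (Mcm3, Mcm7 and Foxm1) and for 10 between BDL_GW4064 and Sham_Vehicle. The 10 were Cdt1, Mcm3, Mcm4, Mcm6, Mcm7, Foxm1, Aurkb, Kif11, Tpx2 and Cdc20. The direction given above for Mcm2 between BDL_Vehicle and Sham_Vehicle holds for the brightest probe set only. For Mcm3 between BDL_GW4064 and Sham_Vehicle, the log2 fold changes of its 4 probe sets past the filter ran from -0.42 to 0.40. The lowest came from a probe set that read 18.6 and 72.8 in BDL_GW4064 and 47.8 and 55.8 in Sham_Vehicle, and the others were higher in BDL_GW4064. The probe sets of Rrm2 had the same sign in all 3 comparisons, and Plk1, Ube2c and Cenpa had only 1 probe set past the filter.

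Other genes of the same pathways, outside the 48, were read from 4 lists, and none of their genes passed limma's test at an adjusted p of 0.05 in any comparison. At an unadjusted p under 0.05, the mitosis list held 2 genes higher after ligation alone, 0 between BDL_GW4064 and BDL_Vehicle, and 2 higher and 1 lower between BDL_GW4064 and Sham_Vehicle, and the replication list held 0 in all 3 comparisons. For all genes the shares were 2.95% higher after ligation alone, and 7.15% higher and 7.08% lower between BDL_GW4064 and Sham_Vehicle. Of 38 other mitosis genes, 34 were higher in BDL_Vehicle than in Sham_Vehicle, with a median log2 fold change of 0.24. Between BDL_GW4064 and BDL_Vehicle, 6 were higher in BDL_GW4064 (median -0.12). Of all genes, 47.9% and 50.4% were higher in these 2 comparisons. Plk4, which starts centriole duplication, read 111.6 and 106.0 in BDL_Vehicle and 79.8 and 55.7 in Sham_Vehicle (0.67 ± 0.23, adjusted p = 0.751). Cks2, a cyclin-dependent kinase subunit, read 745.1 and 797.1 in BDL_GW4064 and 593.5 and 437.9 in Sham_Vehicle (0.59 ± 0.17, adjusted p = 0.203). Of 39 other replication genes, 29 were higher in BDL_Vehicle than in Sham_Vehicle (median 0.15) and 11 in BDL_GW4064 than in BDL_Vehicle (median -0.11). The flap endonuclease Fen1 went against that count, with 389.5 and 238.9 in BDL_Vehicle and 493.2 and 412.9 in Sham_Vehicle (-0.56 ± 0.26, adjusted p = 0.751).

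Regulators upstream of the cycle were more mixed. Of 16 cyclin D, E2F, MYB and MYC regulators, 9 were higher in BDL_Vehicle than in Sham_Vehicle (56.2%, against 47.9% of all genes, median 0.09). In BDL_GW4064 against BDL_Vehicle, 5 were higher (31.2%, against 50.4% of all genes, median -0.13). E2f8, an E2F repressor that is itself made in S phase, read 160.4 and 146.1 in BDL_Vehicle and 101.8 and 94.7 in Sham_Vehicle (0.62 ± 0.18, adjusted p = 0.741). Cdc25a, a phosphatase that activates cyclin-dependent kinases, read 591.9 and 508.0 in BDL_GW4064 and 429.7 and 330.5 in BDL_Vehicle (0.54 ± 0.17, adjusted p = 0.463). Of 15 inhibitors and exit genes, 7 (46.7%) were higher in each of the 3 comparisons, near the 47.9%, 50.4% and 51.8% of all genes. At limma's unadjusted p under 0.05 there were 5 lower and 0 higher between BDL_GW4064 and Sham_Vehicle, against 7.08% of all genes lower. Klf4, which restrains crypt proliferation as epithelial cells differentiate, read 1162.5 and 1146.2 in BDL_GW4064, 1678.2 and 1438.7 in BDL_Vehicle, and 1783.6 and 1887.3 in Sham_Vehicle. Both GW4064 arrays were the lowest of the 6, with a log2 fold change of -0.67 ± 0.12 against Sham_Vehicle (adjusted p = 0.153) and -0.43 ± 0.12 against BDL_Vehicle (adjusted p = 0.405). Cdkn2b, an inhibitor of the cyclin D kinases, read 853.8 and 669.0 in BDL_GW4064, 1116.6 and 1069.8 in BDL_Vehicle, and 1114.7 and 1176.6 in Sham_Vehicle. It too was lowest on the BDL_GW4064 arrays, with a log2 fold change of -0.60 ± 0.14 against Sham_Vehicle (adjusted p = 0.176) and -0.53 ± 0.14 against BDL_Vehicle (adjusted p = 0.394).

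Markers of other cells in the ileum differed between arrays, some in the same order as the members. Of 5 Paneth cell markers with a probe set, 4 passed the filter, and their median level was -0.20 and 0.38 in BDL_GW4064, 0.44 and -0.20 in BDL_Vehicle, and 0.07 and -0.43 in Sham_Vehicle. Their summed signal was 10672.8 and 11870.6 in BDL_GW4064, 12337.8 and 9921.4 in BDL_Vehicle, and 11703.7 and 9510.1 in Sham_Vehicle. Mmp7, a Paneth cell protease, read 689.3 and 1393.3 in BDL_GW4064, 1583.6 and 745.5 in BDL_Vehicle, and 934.6 and 583.4 in Sham_Vehicle. For the median and Mmp7, as for the members, BDL_Vehicle array 1 and BDL_GW4064 array 2 were highest and Sham_Vehicle array 2 lowest. The same held for Pla2g2a. It did not hold for Lyz1, with 5474.0 and 5276.0 in BDL_GW4064, 5677.2 and 5621.7 in BDL_Vehicle, and 5878.4 and 4758.0 in Sham_Vehicle. Nor did it hold for Itln1, with 4329.3 and 4776.0, 4554.0 and 3317.6, and 4689.8 and 4038.7 in those groups. The part of Paneth cell content in the members' values was not tested. The 7 crypt stem cell markers past the filter, of 8, had medians of -0.24 and 0.05 in BDL_GW4064, 0.24 and -0.15 in BDL_Vehicle, and 0.11 and -0.03 in Sham_Vehicle. The median over the 9 enterocyte markers, all past the filter, lay between -0.08 and 0.10 on the 6 arrays, although single markers spread further: Fabp1, a fatty acid carrier, read 942.6 to 3514.3 and lactase (Lct) 1493.0 to 3581.5. Smooth muscle markers, 8 of 10 past the filter, summed to 1979.8 and 12769.8 in BDL_GW4064, 1629.9 and 2016.7 in BDL_Vehicle, and 1974.1 and 2168.1 in Sham_Vehicle. BDL_GW4064 array 2 thus had far more muscle signal than any other array, and was also the array on which 18 members were highest; the part of this in the members' values was not tested. Fibroblast and matrix markers, 9 of 9 past the filter, had medians of 0.81 and 0.99 in BDL_GW4064, -0.83 and -0.22 in BDL_Vehicle, and -0.64 and -0.07 in Sham_Vehicle, so both BDL_GW4064 arrays lay above the rest. Macrophage markers, 8 of 8 past the filter, had medians of 0.42 and 0.22 in BDL_GW4064, 0.06 and -0.24 in BDL_Vehicle, and -0.17 and -0.36 in Sham_Vehicle. All 8 were higher in BDL_GW4064 than in Sham_Vehicle, with a median log2 fold change of 0.66. Endothelial markers, 5 of 7 past the filter, had medians of 0.49 and 0.52 in BDL_GW4064, -0.33 and -0.20 in BDL_Vehicle, and -0.34 and 0.05 in Sham_Vehicle. Enteroendocrine markers, 9 of 9 past the filter, had medians of 0.02 and -0.25 in BDL_GW4064, 0.06 and -0.19 in BDL_Vehicle, and 0.17 and 0.31 in Sham_Vehicle. Of these 9, 8 were lower in BDL_Vehicle than in Sham_Vehicle (median -0.25), against 52.1% of all genes. At limma's unadjusted p under 0.05, 3 of them were lower, against 3.06% of all genes. On Sham_Vehicle array 2, where 26 members were lowest, 7 of these markers were highest, against 18.9% of all genes. The part of fibroblast, macrophage, endothelial and enteroendocrine cells in the members' values was not tested. Germinal centre B cells also divide, and of their 5 markers with a probe set only Bcl6 and Fas passed the filter. These 2 had a median log2 fold change of -0.47 in BDL_Vehicle against Sham_Vehicle, 0.12 in BDL_GW4064 against BDL_Vehicle and -0.36 in BDL_GW4064 against Sham_Vehicle. Without the filter, 2 of the 5 were higher and 3 lower in BDL_Vehicle than in Sham_Vehicle. The part of these cells in the members' values was not tested either. No listed marker with a probe set was at 0 on any array, which does not show that its cell type was present. Mybl1, a germinal centre B cell marker, read only 0.3 to 5.9.

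**Figure D5:**
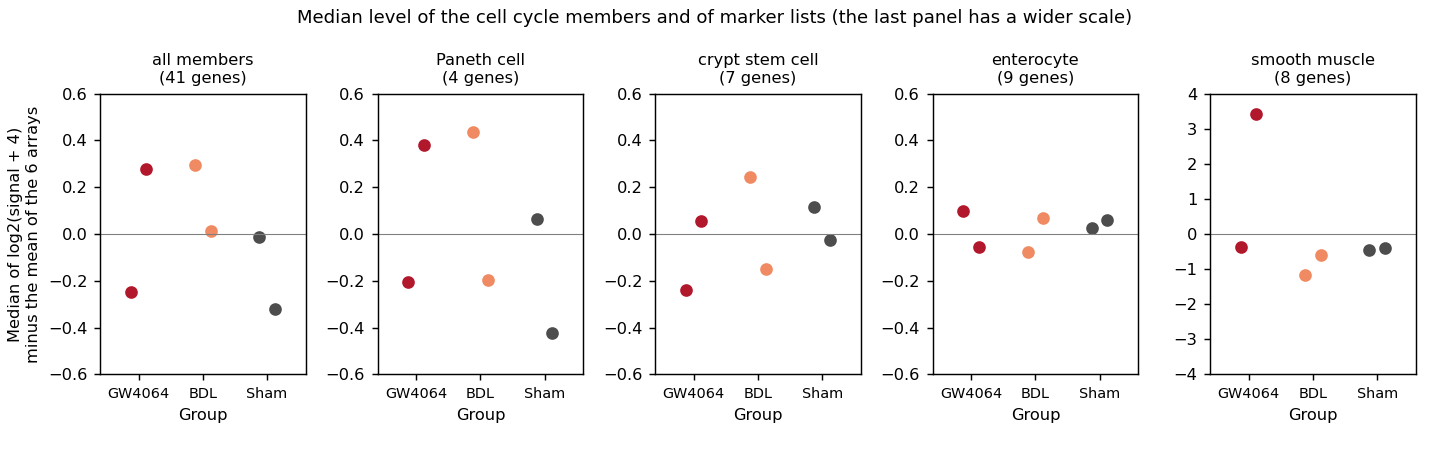
Median level of the 41 members and of 4 marker lists on each array (vertical axis, log2(signal + 4) minus the mean of the 6 arrays; replicate 1 left, replicate 2 right), grouped by BDL_GW4064, BDL_Vehicle and Sham_Vehicle, with a wider scale in the smooth muscle panel. The Paneth cell panel has its 2 highest points on the same arrays as the members (0.44 on BDL_Vehicle array 1 and 0.38 on BDL_GW4064 array 2), and smooth muscle stands out at 3.43 on BDL_GW4064 array 2.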

How the data were processed

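Total RNA from ileum was labelled as biotinylated cRNA and hybridised to Affymetrix mouse 430A 2.0 arrays; the labels mention batches of in vitro transcription without assigning arrays to them. Deposited values were linear intensity signals, made by the authors with MAS5, per the submitters' processing notes, and their 2% trimmed mean was near 200 on all 6 arrays. Its version, settings and detection calls are not given in the sources used here. Of 22626 probe sets that are not controls, 20380 had 1 gene in the annotation, 691 had several and 1555 had none, and a gene was named only from a probe set annotated to it alone.

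Signals were put on the log2(signal + 4) scale, where 4 is the 10th percentile of all signals, which understates the change of low genes. The lowest 40% of probe sets by mean were left out, and limma 3.58.1 in R 4.3.3 was fitted to the remaining 13575 probe sets over all 6 arrays, with 1 mean per group (3 residual and 4.71 prior degrees of freedom) and Benjamini-Hochberg adjustment over all of them. Each gene was then read from its brightest probe set (7919 genes). The number of arrays limits the precision. The fit was tested on simulated data. Named members are the 8 with the smallest p in each comparison, plus Mki67, Top2a, Pcna and Mcm2 throughout, and at most 4 genes per other pathway list. The members and all gene lists were chosen with earlier results of these data known. Replicate numbers did not pair the arrays: the correlation of deviations from group means was -0.12 between BDL_GW4064 and BDL_Vehicle, 0.09 between BDL_GW4064 and Sham_Vehicle, and 0.04 between BDL_Vehicle and Sham_Vehicle. Alternatives covered the normalization, pseudocount, signal filter, prior, replicate block, 18S array set, probe sets per gene, the arrays fitted and leaving out each array.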

Additional observations from a re-analysis of the deposited data

How the results depend on the processing

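No member passed at an adjusted p of 0.05 in any comparison under any of the alternatives run, and with 2 arrays a group that says nothing about stability. The smallest adjusted p of a member over these settings, leave-outs included, was 0.323 for BDL_Vehicle against Sham_Vehicle, 0.276 for BDL_GW4064 against BDL_Vehicle and 0.213 for BDL_GW4064 against Sham_Vehicle. Members with higher values and an unadjusted p under 0.05 numbered 1 to 10, 0 to 0 and 0 to 9 in these comparisons, and those with lower values 0 to 1, 0 to 4 and 0 to 2. Probe sets passing over the whole array numbered 1 to 6, 2 to 56 and 0 to 32. The replicate block cannot change a group difference, because each group holds 1 array of each replicate number. The member medians of 0.29, -0.11 and 0.20 were therefore fixed under it. With the block, 0 members passed, and 2, 4 and 0 probe sets passed in all. No call of a member differed under the block. With the crossed pairing of BDL_GW4064 and BDL_Vehicle, chosen after seeing the data, 35 probe sets and 0 members passed. When the 18S array set entered the fit, the member medians were 0.46, 0.03 and 0.46. Both Sham_Vehicle arrays lay in the higher 18S set and both BDL_GW4064 arrays in the lower one. The first median thus compares only BDL_Vehicle array 1 with Sham_Vehicle, and the second BDL_GW4064 with only BDL_Vehicle array 2. Both repeat the fits that leave out 1 BDL_Vehicle array and are no separate check. The cause of the differences between these arrays was not tested. Among single genes, the log2 fold change turned sign as follows, none of them past the threshold, and the cause was not tested. Pcna between BDL_GW4064 and BDL_Vehicle was -0.019 after quantile normalization and -0.061 after centring on the median. With the 18S term, Mcm2 was 0.34 between BDL_Vehicle and Sham_Vehicle, 0.0027 between BDL_GW4064 and BDL_Vehicle and 0.34 between BDL_GW4064 and Sham_Vehicle. Under that term Top2a was 0.027 between BDL_GW4064 and BDL_Vehicle, and Nek2 was 0.46 between BDL_GW4064 and Sham_Vehicle. Those values for comparisons with BDL_Vehicle again rest on 1 BDL_Vehicle array, as in the leave-outs. With the mean of all probe sets, Mcm2 between BDL_Vehicle and Sham_Vehicle was 0.10. Leaving out 1 array at a time gave -0.48 to 0.34 for Mcm2 between BDL_Vehicle and Sham_Vehicle. Between BDL_GW4064 and BDL_Vehicle it gave -0.81 to 0.0027 for Mcm2, -0.36 to 0.097 for Top2a, -0.081 to 0.084 for Pcna and -0.29 to 0.12 for Mki67. Between BDL_GW4064 and Sham_Vehicle it gave -0.0047 to 0.40 for Mki67.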
